A study of Homo sapiens with 6 samples.

Results

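The response of HSC4, an established human line of oral squamous cell carcinoma, to a plasma-like culture medium was read from 2 of the 6 RNA libraries of the series. One library came from HSC4 cells grown in DMEM, a standard medium whose nutrient levels differ from those of blood, and the other from HSC4 cells grown in HPLM, a medium composed to resemble human plasma. Heat-inactivated fetal bovine serum and an antibiotic-antimycotic mix were added alike to both, and the same pair of media was used for 2 further oral cancer lines, HSC3 and SAS, which serve here as background. The labels give no genetic change, drug or time in culture for any line. Transcript values were summed to 27852 gene symbols and expressed as CPM (counts scaled to a common library total). Of these, 12518 had a mean of at least 1 CPM over both HSC4 libraries and are called measured. The filter averages over both media, so a gene seen in only 1 medium could pass it.

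With 1 library per medium, a difference between the media in HSC4 has no replicate check. The values below are therefore log2 ratios, the log2 of HPLM over DMEM after adding 0.5 CPM to each, and are given without a test. The added 0.5 CPM understates the ratio of genes with low levels. The deposited counts are already corrected for transcript length, so levels may be compared between genes, and they are not read numbers, so no counting interval is given. How far HSC4 departed from the other lines could be tested across all genes, and that test is given at the end. RNA of all cells in a culture was pooled, so fewer cells that express a gene cannot be told apart from less RNA per cell.

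Estimated counts summed to 19210908 in the DMEM library of HSC4 and to 17715962 in its HPLM library, the lowest of the 6 totals, the highest being 20171750. Genes at 1 CPM or more numbered 12510 and 12440, and mitochondrially encoded genes took 14.7% and 15.1% of the counts. All 12 squamous epithelium markers looked for were measured in HSC4, from KRT5 at 975 CPM in DMEM down to KRT14, the partner keratin of the basal layer, at 4.79 CPM, where SAS had 203 CPM. Of 8 fibroblast markers 1 was measured, COL1A1, and COL3A1 and THY1 were at 0 in both libraries. No endothelial or erythroid marker was measured. Of 8 leukocyte markers 5 were measured, with CD68 highest at 44.5 CPM, and LYZ was at 0. The leukocyte markers summed to 49.8 CPM in DMEM and 57.7 CPM in HPLM. Of 6 melanocyte and neural markers 2 were measured, TUBB3 at 62.3 CPM in DMEM among them, and SOX10 was at 0. The part of these markers in the results below was not tested.

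Most genes differed little between the media. Across the 1549 measured genes with a mean of 100 CPM or more, the middle 90% of HSC4 log2 ratios lay between −0.39 and 0.35. Across the 2543 genes between 1 and 5 CPM the same range was −1.10 to 0.98. A ratio past 2-fold is thus common in weakly expressed genes (10.9% of them) and rare in abundant ones (0.581%). In HSC4, 192 genes were 2-fold or more higher in HPLM, 1.53% of those measured, and 248 were 2-fold or more lower, 1.98%. Which direction held more genes depended on the scaling: with TMM, HSC4 genes 2-fold higher in HPLM numbered 208 and HSC4 genes 2-fold lower in HPLM numbered 196. HSC3 had 1.76% and 2.06%, and SAS had 2% and 1.4%, each over the genes measured in that line. The median ratio over all genes measured in HSC4 was −0.06, with 7346 of the 12518 below 0 and 5172 above it. This split depends on the scaling too, as the median with TMM was −0.005.

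**Figure D1:**
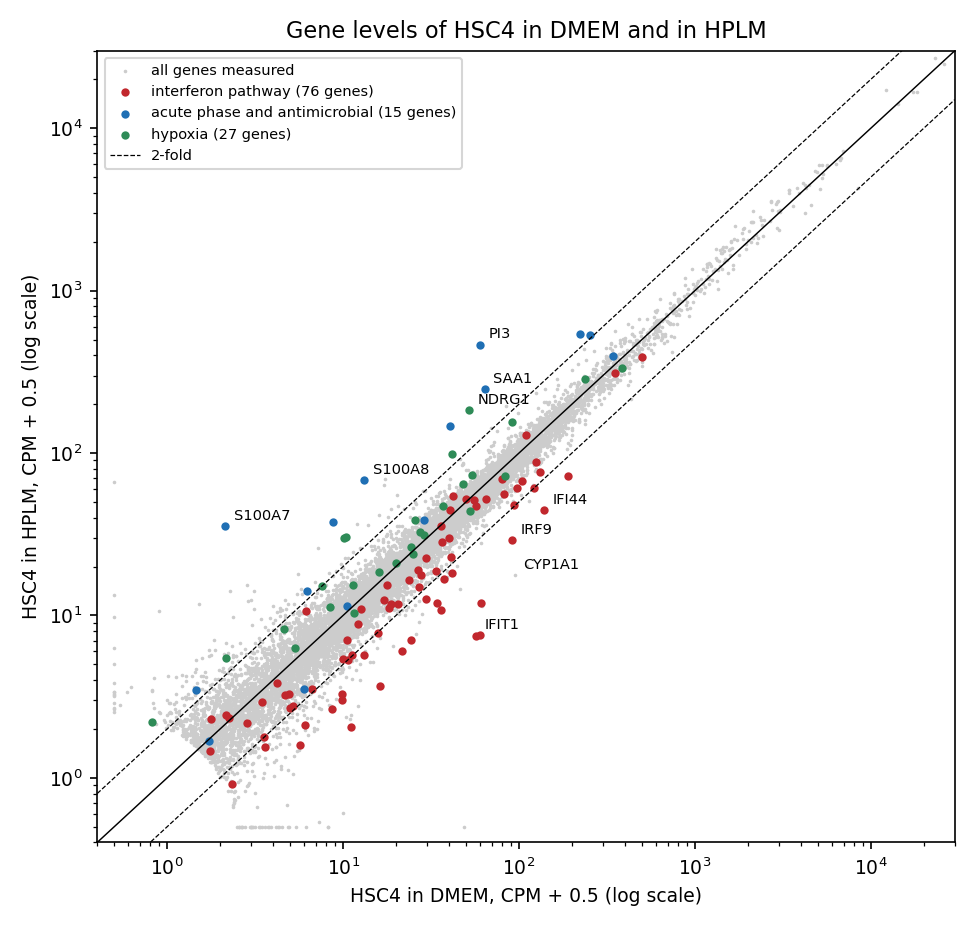
Level of each of the 12518 measured genes in the HSC4 DMEM library (x axis) and the HSC4 HPLM library (y axis), both in CPM plus 0.5 on log scales, with 3 gene lists coloured and dashed lines at 2-fold. Most interferon pathway genes (red) lie below the diagonal, while most acute phase and antimicrobial genes (blue) lie above it, with PI3 at 59.6 CPM in DMEM and 465 CPM in HPLM.

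Of the 248 lower genes, 42 were also 2-fold lower in HSC3 and 31 in SAS, 12 of them in both lines, and 187 in neither. Of the 192 higher genes, 39 were also 2-fold higher in HSC3 and 31 in SAS, 14 of them in both, and 136 in neither. Low levels account for many of these: 127 of the lower and 96 of the higher genes stayed under 5 CPM in both HSC4 libraries. At a mean of 20 CPM or more, 25 genes were 2-fold lower and 23 were 2-fold higher. Of those 25 lower genes, 12 belonged to a list of 84 interferon pathway genes, which holds the largest group of named genes on the lower side.

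Interferons are secreted signals that epithelial cells make and sense when viral or misplaced nucleic acid is detected. Type I interferons bind the receptor IFNAR1 and IFNAR2, whose kinases JAK1 and TYK2 activate STAT2 among other factors. STAT2 joins IRF9 in a complex that binds the interferon-stimulated response element (ISRE) near the start of antiviral effector genes such as the IFIT, MX and OAS families. The gamma-activated site (GAS) is another element, known from the response to interferon gamma. Several parts of the pathway, IRF9 and the RNA sensor DDX58 among them, are themselves induced by interferon, so levels of sensors and transcription factors often move with those of the effectors.

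The upstream promoter sequences of 6 members with large ratios in HSC4 are shown because they hold, or lack, the element through which this complex is known to act. Each is the 250 bases before the RefSeq start (GRCh38.p14), 5′ to 3′ on the gene's strand, with every match to the ISRE letters GAAANNGAAA, on either strand, in capitals. The windows are chr10:89392373-89392622 (plus strand) for IFIT1, chr10:89327747-89327996 (plus) for IFIT3, chr1:78620198-78620447 (plus) for IFI44L, chr1:27672193-27672442 (minus) for IFI6, chr9:32526197-32526446 (minus) for DDX58 and chr14:24161015-24161264 (plus) for IRF9.
IFIT1: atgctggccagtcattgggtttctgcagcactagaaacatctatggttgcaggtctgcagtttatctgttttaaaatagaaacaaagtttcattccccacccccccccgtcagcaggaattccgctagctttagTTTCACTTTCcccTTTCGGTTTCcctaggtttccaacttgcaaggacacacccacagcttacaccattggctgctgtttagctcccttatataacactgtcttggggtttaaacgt
IFIT3: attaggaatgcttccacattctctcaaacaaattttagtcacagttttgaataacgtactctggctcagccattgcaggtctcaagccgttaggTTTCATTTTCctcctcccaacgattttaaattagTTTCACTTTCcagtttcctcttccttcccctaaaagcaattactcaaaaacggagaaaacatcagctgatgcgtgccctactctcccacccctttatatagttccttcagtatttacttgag
IFI44L: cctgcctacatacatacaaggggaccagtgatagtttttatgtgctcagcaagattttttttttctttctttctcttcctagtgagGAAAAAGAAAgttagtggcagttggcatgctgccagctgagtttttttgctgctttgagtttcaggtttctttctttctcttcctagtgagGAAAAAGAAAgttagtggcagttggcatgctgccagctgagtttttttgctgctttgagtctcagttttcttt
IFI6: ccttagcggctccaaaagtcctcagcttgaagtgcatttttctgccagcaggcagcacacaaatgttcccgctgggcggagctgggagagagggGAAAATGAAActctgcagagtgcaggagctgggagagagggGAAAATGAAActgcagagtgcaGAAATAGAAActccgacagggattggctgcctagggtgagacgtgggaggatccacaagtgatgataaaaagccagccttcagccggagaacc
DDX58: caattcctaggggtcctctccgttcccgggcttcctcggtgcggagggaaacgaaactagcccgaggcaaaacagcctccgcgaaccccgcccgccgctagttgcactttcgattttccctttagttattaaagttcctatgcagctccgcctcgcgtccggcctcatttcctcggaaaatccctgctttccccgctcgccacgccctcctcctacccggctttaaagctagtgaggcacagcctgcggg
IRF9: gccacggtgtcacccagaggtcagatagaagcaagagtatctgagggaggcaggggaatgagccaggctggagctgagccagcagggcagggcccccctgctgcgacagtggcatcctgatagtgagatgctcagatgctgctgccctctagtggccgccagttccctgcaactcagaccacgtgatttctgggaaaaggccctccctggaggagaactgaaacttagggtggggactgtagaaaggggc

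IFIT1 had matches that begin 116 and 103 bases before the start, IFIT3 156 and 122, IFI44L 164 and 73, and IFI6 had 3, at 156, 115 and 93. DDX58 and IRF9 had none, which says only that these letters are not in this window. The search covered 300 bases, from 250 before to 50 after the start, and RefSeq gave such a window for 59 of the 76 measured interferon genes. The ISRE letters were found in 10 of the 18 interferon genes that were 2-fold lower (55.6%) and in 20 of the 41 others (48.8%), against 3.65% of all 27305 promoters. The list is made of known interferon genes, so its share above that of all promoters is no finding, and the lower members did not stand out from the rest of the list by much. The letters were in 7 of the 119 lower genes outside the list (5.88%) and in 2 of the 116 higher genes that had a window (1.72%). Among all 9796 measured genes with a window the share was 2.80%. The difference between these small counts was not tested. The GAS letters TTCNNNGAA, searched on both strands, were in 2 of the 18 lower members, 13 of the 41 others and 7.88% of all promoters, and no GAS match overlapped an ISRE match in the 18.

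Of the 84 interferon genes, 83 were in the table and 76 were measured in HSC4. In the HPLM library 68 of the 76 were below their DMEM level, where 7346 of all 12518 measured genes were. A total of 25 were 2-fold or more lower, 32.9% of the list where 1.98% of all measured genes were, and 0 were 2-fold higher. The median log2 ratio of the list was −0.74 in HSC4, 0.04 in HSC3 and −0.16 in SAS. In SAS 6 of the 76 were 2-fold lower too, where 165 of all 12518 measured genes were. In HSC3 1 of the 76 was, where 248 of the 12518 were. HSC4 had the lowest ratio of the 3 lines for 59 of the 76, where this held for 4430 of all 12518 measured genes.

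The effectors, which carry out the antiviral functions, accounted for 21 of the 25. All 46 measured effectors had a ratio below 0 in HSC4, where 7346 of all 12518 measured genes did. Their median was −0.99 in HSC4, −0.01 in HSC3 and −0.21 in SAS. IFIT1, which binds viral RNA caps, stood at 56.8 CPM in DMEM and 7.01 CPM in HPLM in HSC4. In HSC3 it was at 4.44 and 3.93 CPM, and in SAS at 10.4 and 3.98 CPM, a log2 ratio of −1.29. The DMEM level of HSC4 thus stood far above the other 5 libraries, and its HPLM level was still above those of the other lines in HPLM. IFIT3, its partner, went from 60.7 to 11.4 CPM between the HSC4 libraries, a log2 ratio of −2.36, with −0.08 in HSC3 and −1.03 in SAS. IFIT2, of the same family, had −1.85 in HSC4, −0.59 in HSC3 and −0.85 in SAS.

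MX1, a GTPase that traps viral particles, was at 35.6 CPM in DMEM and 10.3 CPM in HPLM in HSC4, a log2 ratio of −1.75, where HSC3 had 0.16 and SAS −0.44. Of the OAS family, which senses double-stranded RNA and activates RNA decay, OAS1 had a log2 ratio of −1.19, OAS2 of −1.52 and OAS3 of −1.01 in HSC4. In HSC3 and SAS the same 3 genes lay between −0.26 and 0.26. The related OASL had −2.14 in HSC4 and −1.60 in SAS. IFI6, an interferon-induced mitochondrial protein, was the most abundant effector past 2-fold, at 189 CPM in DMEM and 72.0 CPM in HPLM in HSC4, and the 4 libraries of the other lines lay between 5.32 and 13.4 CPM. IFI44 was the only one of these 21 effectors for which another line had a lower ratio (−2.17 in SAS, −1.64 in HSC4). CXCL10, a chemokine that draws T cells, was at 5.59 and 1.62 CPM in HSC4 and under 1 CPM in all other libraries.

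IFITM2, which blocks viral entry, had the lowest log2 ratio of any measured protein-coding gene at 5 CPM or more in HSC4, −2.99 (59.8 CPM in DMEM, 7.08 CPM in HPLM), against −0.02 in HSC3 and 0.08 in SAS. This value rests on 1 transcript of 382 bases, and IFITM2 shares most of its sequence with IFITM1 and IFITM3, so the split of reads among them is uncertain. In IFITM1, 1 transcript of 844 bases went from 44.5 to 0.022 CPM while the rest of the gene went from 59.3 to 66.7 CPM. The sum of IFITM1, IFITM2 and IFITM3, which does not depend on that split, was 661 CPM in DMEM and 466 CPM in HPLM in HSC4, 1233 and 1194 CPM in HSC3, and 307 and 321 CPM in SAS. HSC4 was thus the line with the larger difference, at a far smaller size than IFITM2 alone shows.

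**Figure D2:**
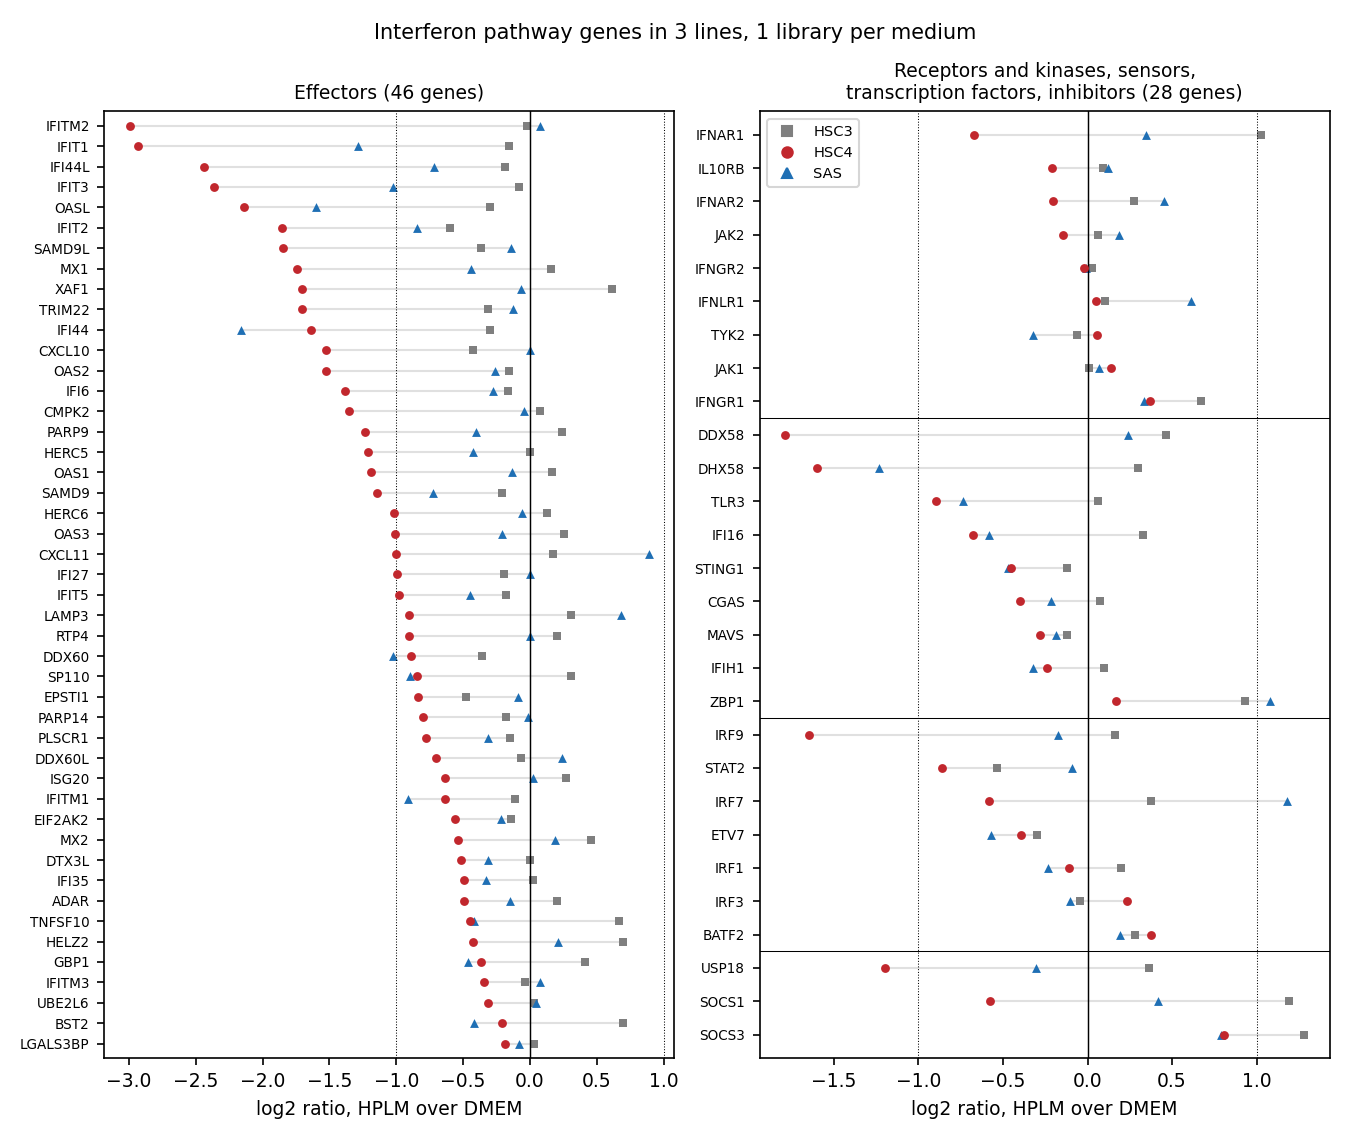
Log2 ratio of HPLM over DMEM (x axis) for the 46 measured interferon effectors (left) and for 28 receptors and kinases, sensors, transcription factors and inhibitors (right, in blocks from top to bottom), with 1 point per line and dotted lines at 2-fold. All 46 effectors lie below 0 in HSC4 (circles), and for 40 of them HSC4 is the lowest of the 3 lines.

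The sensors upstream of interferon were lower in HSC4 by smaller amounts, with a median log2 ratio of −0.45 over 9 genes and 2 past 2-fold. DDX58, which encodes the RNA sensor RIG-I, was at 23.7 CPM in DMEM and 6.52 CPM in HPLM, a ratio of −1.79, where HSC3 had 0.46 and SAS 0.24. Its relative DHX58 had −1.60 in HSC4, 0.30 in HSC3 and −1.23 in SAS. The DNA sensors CGAS (−0.40) and IFI16 (−0.68), the adaptor STING1 (−0.45) and the RNA adaptor MAVS (−0.28) did not reach 2-fold. ZBP1, a sensor of left-handed nucleic acid, was the 1 sensor above 0 in HSC4, at 0.17.

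Among the transcription factors, IRF9 had the lowest ratio, with 90.6 CPM in DMEM and 28.6 CPM in HPLM in HSC4 (−1.65), 19.3 and 21.7 CPM in HSC3 and 8.70 and 7.64 CPM in SAS. All but 2 of its 15 transcripts had a value above 0 in HSC4, and those 13 were all lower in HPLM. Its partner STAT2 (26.6 and 14.4 CPM) had a ratio of −0.86 in HSC4, short of 2-fold, with −0.54 in HSC3 and −0.09 in SAS. IRF7, the factor that amplifies interferon production, had −0.58 in HSC4 but 0.37 in HSC3 and 1.18 in SAS. IRF1 (−0.11) and IRF3 (0.23), which is not itself induced by interferon, were within the middle 90% of genes at their level.

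The receptors and kinases showed no such shift, their 9 genes having a median ratio of −0.02, with 4 above 0 and 0 past 2-fold in either direction. JAK1 had 0.14, TYK2 0.06 and JAK2 −0.15 in HSC4. IFNAR1 was the lowest at −0.67 (18.1 CPM in DMEM, 11.2 CPM in HPLM), and it was higher in HPLM in HSC3 (1.03) and in SAS (0.35). Of the interferons themselves, IFNB1 was at 0.222 CPM in DMEM and 0 in HPLM in HSC4, and of the 6 ligands looked for IFNE alone was measured, at 1.25 and 0.957 CPM. Among the inhibitors, USP18, which restrains the receptor, was at 12.7 and 5.23 CPM, and SOCS1 had −0.58, while SOCS3, which is induced through STAT3, had 0.81.

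The level in DMEM set HSC4 apart as much as the ratio did. Summed over the effectors, HSC4 had 2656 CPM in DMEM and 1607 CPM in HPLM, HSC3 had 1958 and 1930.3 CPM, and SAS had 936.5 and 850.5 CPM. HSC4 had the highest DMEM level of the 3 lines in 41 of the 46 effectors (89.1%), against 44.3% of all genes measured in HSC4, and the highest HPLM level in 31 (67.4%), against 43.4%. The filter on HSC4 levels favours HSC4 in such ranks, which is why the share over all genes is given beside each. The DMEM level enters both the rank and the ratio, so these are not separate observations.

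Genes of class I antigen presentation, which shows peptides from inside the cell to T cells and is raised by interferon, were also lower in HPLM in HSC4, and by less. All 17 had a log2 ratio below 0, where 7346 of all 12518 measured genes did. Their median was −0.44, and 0 of the 17 were past 2-fold. The medians of the same genes were 0.04 in HSC3 and −0.24 in SAS. B2M, the common light chain, was at 4542 CPM in DMEM and 3345 CPM in HPLM (−0.44). TAP1, which carries peptides into the endoplasmic reticulum, had the lowest ratio (−0.85, against 0.14 in HSC3 and 0.01 in SAS), followed by NLRC5 (−0.66), the transcription factor of these genes, and HLA-F (−0.64). The immunoproteasome subunit PSMB9 had −0.59 in HSC4 and 0.41 in HSC3, and PSMB10 had −0.03 in HSC4.

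NF-kB is a family of transcription factors that drives inflammatory genes, chemokines for neutrophils among them, and squamous cancer lines often hold it partly active. Its target genes gave the opposite contrast: as a group they were higher in HPLM in HSC3 and SAS, while their median in HSC4 was near 0. Over the 39 measured genes of the list the median log2 ratio was 0.06 in HSC4, 1.02 in HSC3 and 0.69 in SAS. HSC4 had the lowest ratio of the 3 lines in 29 of them and the highest in 0. Over all 12518 measured genes it had the lowest in 4430 and the highest in 3926. For 11 of the 39, HSC4 lay at least 1 log2 unit below both other lines, a gap seen on that side in 1.58% of all measured genes.

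Chemokines held 6 of those 11. CXCL8, the main neutrophil attractant, was at 142 CPM in DMEM and 205 CPM in HPLM in HSC4, at 41.1 and 521 CPM in HSC3, and at 1.26 and 69.5 CPM in SAS. The log2 ratios were 0.53, 3.65 and 5.31. In DMEM, HSC4 thus stood above the other lines, and in HPLM it stood between them. CXCL1 showed the same order, with 232 and 435 CPM in HSC4, 69.1 and 836 CPM in HSC3 and 12.8 and 297 CPM in SAS. CCL20, which attracts dendritic cells and Th17 cells, was at 5.20 and 8.08 CPM in HSC4, whereas it reached 42.4 CPM in HSC3 and 66.4 CPM in SAS in HPLM. CXCL2 had 0.80 in HSC4 against 2.76 and 2.29, and CXCL3 had 0.36 against 2.69 and 1.91. CXCL1, CXCL2 and CXCL3 are close paralogs, and their sum was 257 and 474 CPM in HSC4, 103 and 1067 CPM in HSC3 and 17.5 and 322 CPM in SAS. CCL2, which attracts monocytes, had −0.50 in HSC4, 1.37 in HSC3 and 1.47 in SAS, at levels under 7 CPM in all 6 libraries.

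Among the cytokines LTB, a membrane-bound relative of tumour necrosis factor, was lower in HPLM in HSC4 (194 and 112 CPM, −0.79) and higher in HSC3 (3.56 and 13.1 CPM) and SAS (2.46 and 11.6 CPM). Even its HPLM level in HSC4 was above every library of the other lines. IL6 was at 180 and 199 CPM in HSC4 (0.14), while HSC3 had 1.24 and SAS 2.49 from 6.25 and 6.38 CPM in DMEM. TNF had −0.22 in HSC4 and 1.65 in HSC3. Of the 39 genes of the NF-kB list, 3 were past 2-fold higher in HSC4, 20 in HSC3 and 17 in SAS. The HSC4 share was 7.69%, against 1.53% of all measured genes. These 3 were all cytokines of low level: IL36G (2.54 and 8.22 CPM), CSF3 (0.520 and 2.41 CPM) and IL11 (3.90 and 10.6 CPM). CSF3, the granulocyte growth factor, reached 95.7 CPM in HPLM in HSC3.

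The feedback inhibitors of NF-kB gave the same contrast, with a median of −0.08 in HSC4, 0.78 in HSC3 and 1.47 in SAS. TNFAIP3, an enzyme that shuts off signalling to NF-kB, was at 259 and 269.9 CPM in HSC4 (0.06), with ratios of 1.32 in HSC3 and 1.74 in SAS. NFKBIA, the inhibitor that holds NF-kB in the cytoplasm, had −0.23 in HSC4, 0.78 in HSC3 and 0.69 in SAS. The adhesion molecule ICAM1 had −0.22 in HSC4 and 1.65 and 0.81 in the other lines. The NF-kB subunits themselves differed little, between −0.26 (RELA) and 0.04 (RELB) in HSC4. HSC4 had the highest DMEM level of the 3 lines in 30 of the 39 NF-kB genes (76.9%), in all 7 inhibitors among them, and the highest HPLM level in 19 (48.7%), where the shares over all genes measured in HSC4 were 44.3% and 43.4%. The HPLM share was thus close to that of all genes. As with the interferon genes, the DMEM level enters both this rank and the ratio, so these are not separate observations.

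**Figure D3:**
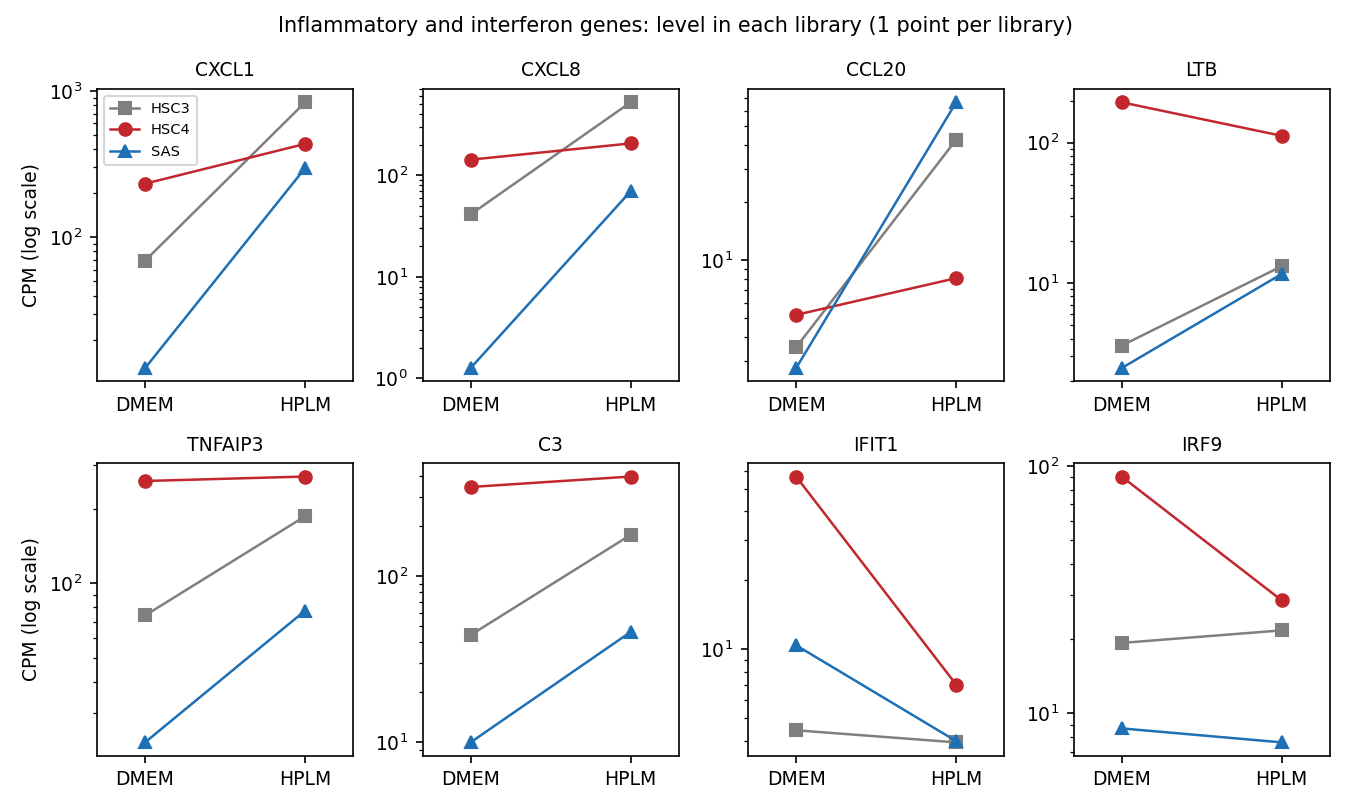
Level in CPM (y axis, log scale, a range of its own per gene) of 8 genes in the DMEM and HPLM libraries (x axis) of HSC3, HSC4 and SAS, 1 point per library, with lines joining the libraries of 1 cell line. HSC4 (circles) starts highest in DMEM in all 8 and is nearly level for TNFAIP3 (259 and 269.9 CPM) and C3 (343 and 397 CPM), for which both other lines are higher in HPLM, and it is lower in HPLM for LTB, IFIT1 and IRF9.

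Not all inflammatory genes kept their level in HSC4. Acute phase proteins and antimicrobial proteins of the epithelium were higher in HPLM, with a median of 1.25 over 15 measured genes and 10 of them past 2-fold, where 1.53% of all genes were. The medians in HSC3 and SAS were 1.99 and 1.18. PI3, which encodes elafin, an inhibitor of neutrophil elastase, was at 59.6 CPM in DMEM and 465 CPM in HPLM in HSC4. Its log2 ratio of 2.95 was above that of SAS (2.19) and HSC3 (1.23), and its level in HPLM was above 35.0 CPM, the highest of the other lines. SLPI, a related inhibitor, was at 252 and 533 CPM (1.08), with 0.47 in HSC3 and −0.08 in SAS.

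S100A8 and S100A9 form calprotectin, a metal-binding protein of inflamed epithelium. S100A8 was at 12.7 and 67.5 CPM in HSC4 (2.37) and S100A9 at 222 and 540.0 CPM (1.28), and the other lines had ratios between 1.44 and 2.92 for this pair. S100A7, or psoriasin, had the largest ratio of any measured protein-coding gene at 5 CPM or more in HSC4, 4.05, from 1.64 to 34.9 CPM. In HSC3 it is listed at 0 in DMEM and stood at 20.2 CPM in HPLM, and in SAS it was at 2.30 and 3.36 CPM. Serum amyloid SAA1 (63.6 and 247 CPM) and SAA2 (8.26 and 37.0 CPM) had ratios of 1.95 and 2.10 in HSC4, below those of both other lines. LCN2, an iron-sequestering protein, had 1.86 in HSC4, 3.74 in HSC3 and 1.54 in SAS.

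The complement genes of the same list behaved like the NF-kB targets. C3, the central component of complement, was at 343 and 397 CPM in HSC4 (0.21), at 44.1 and 177 CPM in HSC3 (1.99), and at 9.98 and 46.1 CPM in SAS (2.15). CFB had 0.43 in HSC4, 2.15 in HSC3 and 1.06 in SAS. HSC4 in DMEM already held more C3 RNA than either other line in HPLM.

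Genes of keratinocyte differentiation build the cornified envelope and the enzymes that mature and shed it. Of the 42 on the list 27 were measured. In HSC4 8 were 2-fold higher and 0 were 2-fold lower, where 1.53% and 1.98% of all measured genes were. Of these 8, KLK5, KLK7 and GRHL3 had a mean between 1 and 5 CPM. At that level 10.9% of all measured genes were past 2-fold in either direction, so the all-gene share is a low background for them. SBSN, KLK5 and GRHL3 were under 1 CPM in DMEM and passed the filter through their HPLM level. The median was 0.72 in HSC4. It was −0.10 in HSC3 and 0.20 in SAS. Among envelope precursors CSTA, a cysteine protease inhibitor, was at 84.2 and 193 CPM in HSC4, past 2-fold, with ratios of 0.08 in HSC3 and 0.26 in SAS. SPRR1B was at 97.7 and 175 CPM (0.84), SPRR2A at 2.59 and 10.4 CPM (1.82), and SBSN at 0.344 and 3.61 CPM (2.28). The 8 measured precursors were higher in the other lines too, with medians of 0.92 in HSC4, 0.55 in HSC3 and 0.58 in SAS. Past 2-fold higher were 4, 1 and 3 of them. Only 2 of the 8 lay at least 1 log2 unit above both other lines, against 4 of the 5 measured enzymes and 0.991% of all measured genes. LORICRIN, FLG, KRT1 and KRT4, markers of terminal layers, were below 0.5 CPM in both HSC4 libraries, and IVL was at 0.281 and 0.659 CPM. The other differentiation keratins were measured, KRT10, the partner of KRT1, at 20.2 CPM in DMEM with a ratio of −0.16, and KRT13, the partner of KRT4, at 6.46 and 12.5 CPM (0.90).

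The kallikreins are serine proteases, some of which cut the junctions between cornified cells, and their genes lie side by side on chromosome 19. KLK10 was at 6.66 and 25.6 CPM in HSC4 (1.86), at 31.5 and 33.8 CPM in HSC3 and at 38.9 and 32.0 CPM in SAS. KLK8 was at 16.5 and 63.4 CPM in HSC4, and its ratio of 1.91 compares with 0.60 in HSC3 and 0.54 in SAS. KLK5 was at 0.710 and 3.77 CPM in HSC4, far under the other lines, whose 4 libraries lay between 103 and 203 CPM. KLK7 had 1.70 and KLK6 0.98 in HSC4, with ratios between −0.51 and 0.26 in the other lines. Taking all 15 kallikrein genes, a group chosen after these values were seen, 6 were measured in HSC4, 4 were 2-fold higher, and 5 lay at least 1 log2 unit above both other lines, where 0.991% of all measured genes did. KLK5 (chromosome 19, 50943303 to 50953093), KLK6, KLK7, KLK8 and KLK10 (51012739 to 51020175) lie on the minus strand in that order of position, not as an unbroken run (GENCODE 29, GRCh38).

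Keratins gave a mixed picture. KRT6B, which marks activated epithelium, was at 11.4 and 36.2 CPM (1.62) and KRT16 at 28.9 and 57.6 CPM (0.98), while KRT17 had −0.51 and KRT5 −0.02 in HSC4. The keratin 6 genes are close paralogs, and KRT6A, KRT6B and KRT6C together were at 345 and 513 CPM in HSC4. KRT14 was at 4.79 and 11.3 CPM in HSC4 (1.16) and lower in HPLM in HSC3 (−0.36) and SAS (−0.39), whose levels were 154 CPM and above. KRT81, a hair keratin with close relatives, was at 16.8 and 69.1 CPM in HSC4, with 2.63 in SAS and −0.51 in HSC3. COL17A1, a basal anchoring protein, had a ratio of 0.00 in HSC4 and −0.69 in HSC3 and −1.15 in SAS.

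**Figure D4:**
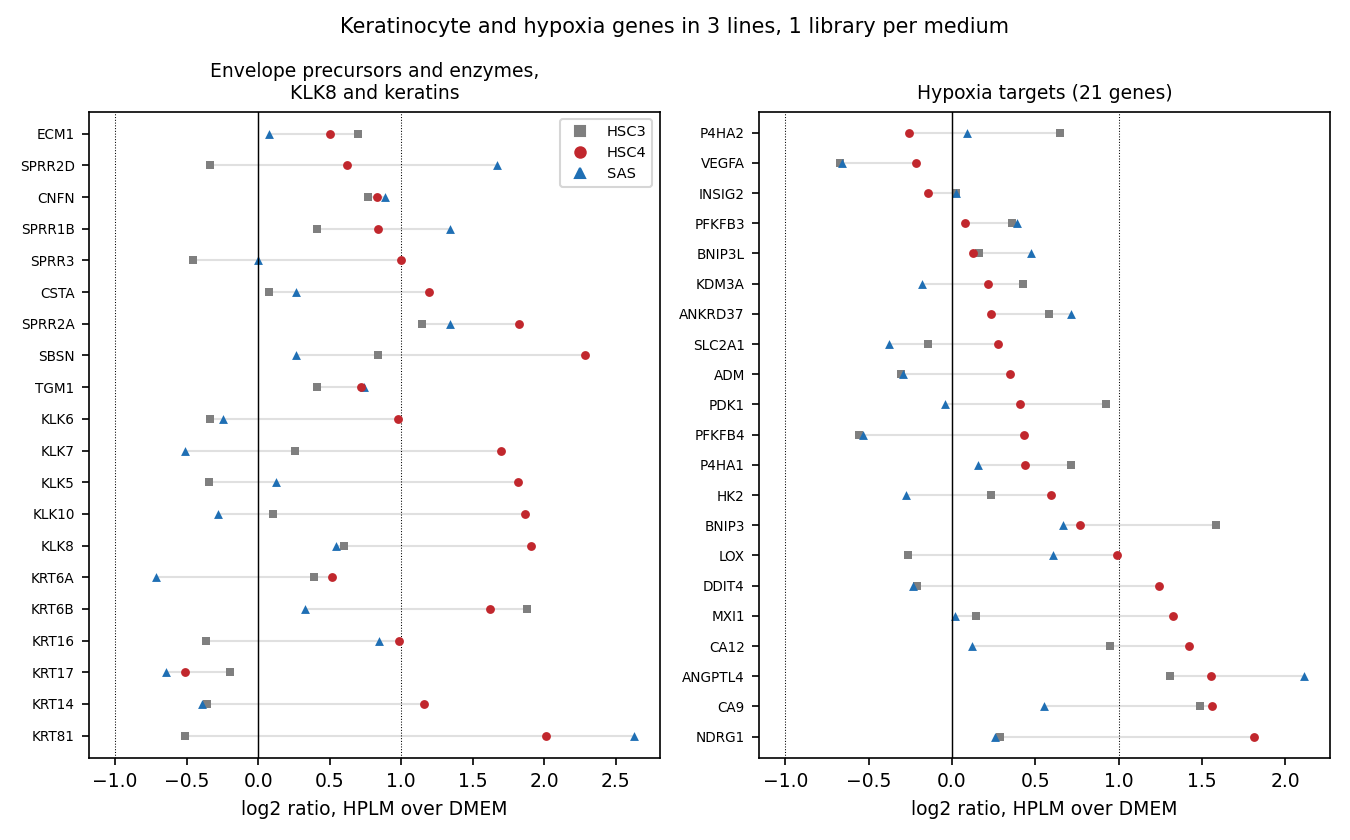
Log2 ratio of HPLM over DMEM (x axis) for envelope precursors, differentiation enzymes, KLK8 and keratins (left) and for the 21 measured hypoxia targets (right), with 1 point per line and dotted lines at 2-fold. KLK5, KLK7, KLK8, KLK10, NDRG1 and DDIT4 lie past 2-fold in HSC4 (circles), and the other lines lie between −0.51 and 0.60 for them.

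Targets of the hypoxia-inducible factors were higher in HPLM in HSC4. Cells use these factors to shift metabolism, acid handling and vessel growth when oxygen is short, and the labels describe the same incubator setting for all lines. Of 27 measured genes 6 were 2-fold higher and 0 lower, where 1.53% and 1.98% of all measured genes were, and 4 of the 27 were 2-fold higher in HSC3. The median was 0.41 in HSC4, 0.24 in HSC3 and 0.09 in SAS. NDRG1, a stress-induced gene of growth arrest, was at 51.7 and 183 CPM in HSC4 (1.81), at 51.5 and 63.1 CPM in HSC3 and at 38.1 and 45.7 CPM in SAS. DDIT4, an inhibitor of the growth kinase mTOR, was at 41.0 and 97.8 CPM in HSC4 (1.24) and slightly lower in HPLM in HSC3 (−0.21) and SAS (−0.23). MXI1, a MYC antagonist, was at 1.66 and 4.93 CPM in HSC4 (1.33), with 0.14 and 0.02 in the other lines. These 3 lay at least 1 log2 unit above both other lines.

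CA9, a carbonic anhydrase of the cell surface, was at 9.58 and 29.3 CPM in HSC4 (1.56) and had 1.49 in HSC3, and CA12 had 1.42. ANGPTL4, a lipase inhibitor, had 1.56 in HSC4, 1.31 in HSC3 and 2.11 in SAS. VEGFA, the vessel growth factor, did not follow them and was lower in HPLM in all 3 lines (−0.22 in HSC4). HIF1A itself had −0.21 and its oxygen sensor EGLN1 had 0.27 in HSC4. The glycolysis list, with 26 measured genes, had a median of 0.06 and 0 genes past 2-fold in HSC4.

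The aryl hydrocarbon receptor senses planar aromatic compounds, including tryptophan products, and drives detoxifying enzymes. Its targets were lower in HPLM in HSC4, with 5 of 7 past 2-fold, where 1.98% of all measured genes were, and a median of −1.36. HSC3 had lower targets too, with 3 of the 7 past 2-fold and a median of −0.97, and SAS had a median of −0.51. CYP1A1, the classical target, was at 94.7 and 17.1 CPM in HSC4 (−2.43), at 32.3 and 2.82 CPM in HSC3 (−3.30) and at 1.11 and 1.02 CPM in SAS. CYP1B1 was at 4.36 CPM in DMEM and is listed at 0 in HPLM in HSC4. UGT1A6, whose exons are shared with its family, was at 26.4 and 8.63 CPM (−1.56), with −2.11 in HSC3 and −1.55 in SAS. ALDH3A1 had −1.36 in HSC4, and AHR itself was at 51.7 and 52.0 CPM. HSC4 had the highest CYP1A1 level of the 3 lines in both media.

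NRF2 controls antioxidant genes, and its list was lower in HSC4 (median −0.37 over 25 genes, 4 past 2-fold against 1.98% of all measured genes). HSC3 had a median of −0.72 with 9 past 2-fold, and SAS had −0.20 with 0. FTH1, the heavy chain of the iron store ferritin, was at 8478 and 4310 CPM in HSC4 (−0.98), and the quinone reductase NQO1, which the aryl hydrocarbon receptor also drives, was at 433 and 215 CPM (−1.01). Both were lower in HPLM in HSC3 too (−1.08 and −1.16). SLC7A11, the cystine importer, was at 5.46 and 1.94 CPM in HSC4 (−1.29), while HSC3 had −3.06. GCLC, which makes glutathione, had 0.14 in HSC4 and −2.08 in HSC3. The 4 members past 2-fold in HSC4 were NQO1, SLC7A11, AKR1C3 and PIR.

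Several nutrient-sensing programmes that were lower in HPLM in HSC3 differed little in HSC4. The list of ATF4 and the amino acid response, a programme for shortage of amino acids, had a median of 0.09 in HSC4, −0.59 in HSC3 and 0.13 in SAS. ASNS, asparagine synthetase, was at 62.0 and 67.4 CPM in HSC4 and at 105 and 13.9 CPM in HSC3. PHGDH, the first enzyme of serine synthesis, had a ratio of 0.00 in HSC4, and PSAT1, the next, was at 82.0 and 84.3 CPM, where HSC3 had −2.08 and −1.73. Besides DDIT4, the secreted stress factor GDF15 was 2-fold higher in HSC4 (5.37 and 13.1 CPM). Amino acid transporters had a median of −0.10 in HSC4 and −0.67 in HSC3.

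Targets of the glucose sensor MondoA were higher in HSC4 by less than 2-fold, with a median of 0.61 over 5 genes, against −0.08 in HSC3 and 0.69 in SAS. All 5 were above 0 in HSC4, where 5172 of all 12518 measured genes were. TXNIP, which limits glucose uptake, was at 71.4 and 116 CPM in HSC4, above 6.65 CPM, the highest of the other lines. SCD, the desaturase that makes monounsaturated fatty acids, was at 43.9 and 19.6 CPM in HSC4 (−1.14), a smaller difference than in HSC3 (−2.17) or SAS (−2.62). It was the only measured gene of fatty acid synthesis past 2-fold in HSC4. Cholesterol genes had a median of −0.22 in HSC4 over 31 genes and 0 past 2-fold, with −0.32 for HMGCS1, which makes the precursor of the pathway.

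Small shifts over whole gene groups were seen on either side of the all-gene median of −0.06. Of all 12518 genes measured in HSC4, 5172 had a ratio above 0 and 7346 below it. Of 59 ribosomal protein genes 50 had a ratio above 0 in HSC4, with a median of 0.22, against 0.06 in HSC3 and 0.07 in SAS. Ribosomal proteins have short RNAs, and when all measured genes were split into 4 groups by transcript length the shortest had a median of −0.03 against −0.08 for the longest. RPL10 went the other way, at 136 and 90.8 CPM in HSC4. Of 22 mitosis genes 21 had a ratio below 0 in HSC4, with a median of −0.28, against 0.21 in HSC3 and −0.16 in SAS. TOP2A, which untangles chromosomes, was at 158 and 107 CPM (−0.57) and the motor gene CENPE had −0.56. BIRC5 was the 1 above 0, at 0.28. No gene of either list was past 2-fold.

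**Figure D5:**
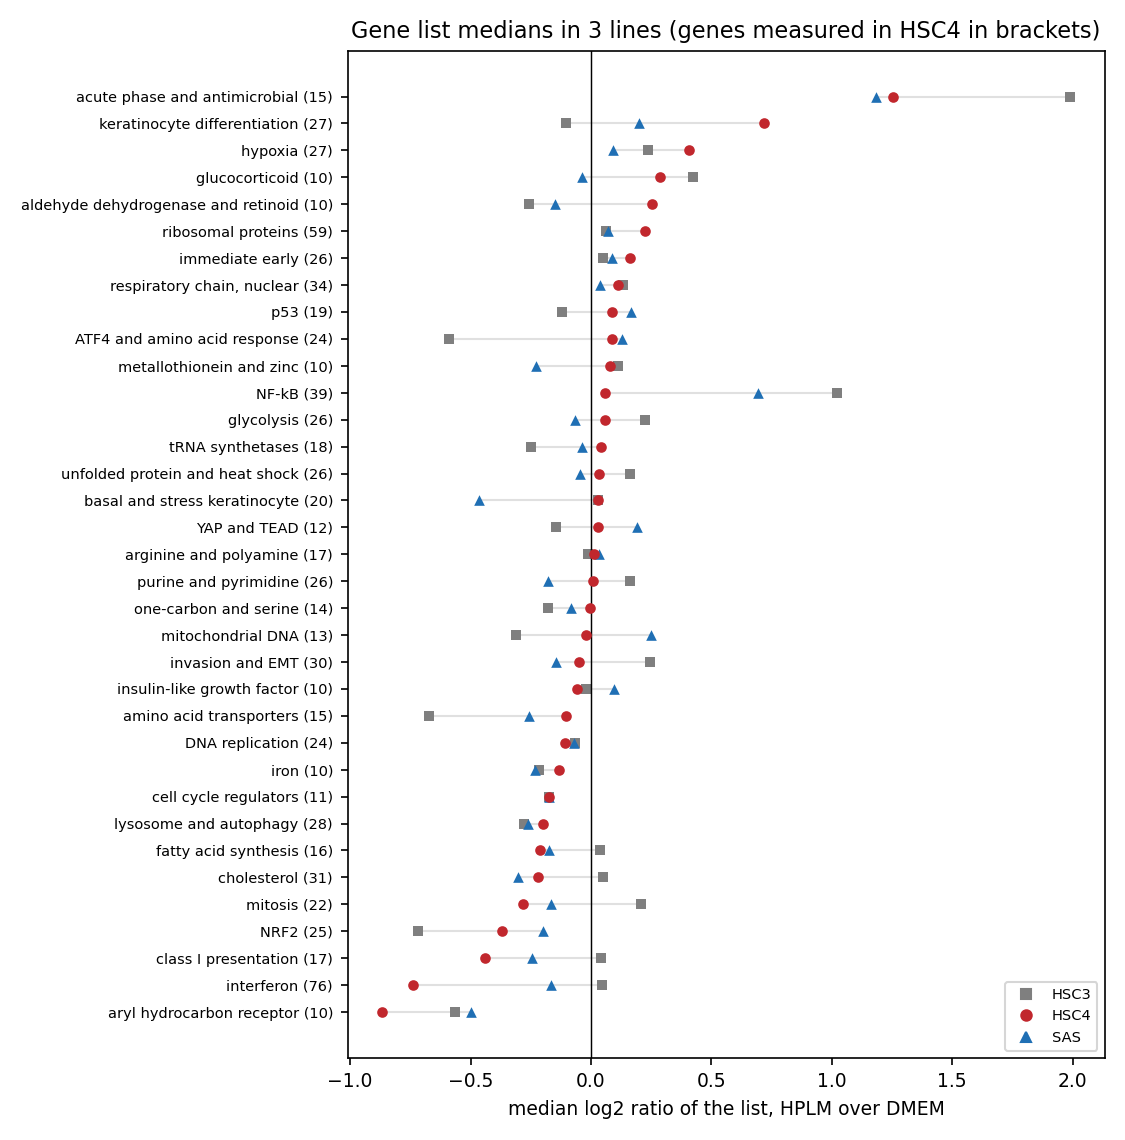
Median log2 ratio of HPLM over DMEM (x axis) of the 35 gene lists with at least 10 genes measured in HSC4 (number in brackets), with 1 point per line. In HSC4 (circles) the medians run from −0.87 for the aryl hydrocarbon receptor list to 1.25 for the acute phase and antimicrobial list, and HSC4 is farthest from both other lines on the lower side for interferon (−0.74) and NF-kB (0.06) and on the higher side for keratinocyte differentiation (0.72).

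Some of the largest ratios in HSC4 rest on 1 transcript, in several cases a short one, or on a pseudogene. Reads of a short transcript or a pseudogene may come from a related gene. Pseudogenes made up 34 of the 192 higher and 60 of the 248 lower genes, and 21.6% of the measured pseudogenes were past it, against 2.81% of protein-coding genes. SRP9P1 is listed at 0 in DMEM and 66.0 CPM in HPLM, and H3P6 at 48.4 CPM in DMEM and 0 in HPLM. C1R went from 0.403 to 10.1 CPM through 1 transcript of 575 bases, CHURC1-FNTB from 1.01 to 11.2 CPM through 1 of 517 bases, and POU2F2 from 2.61 to 13.6 CPM through 1 of 191 bases. TEN1, DUSP7 and MDGA1 owed most of their difference to 1 transcript too, of 994, 3340 and 201 bases, though the rest of MDGA1 also went from 4.18 to 1.79 CPM. STC1, a secreted glycoprotein (2.50 and 11.9 CPM), did so through 1 of 3883 bases, which is not short. XAB2, a splicing and DNA repair factor, was at 1.76 and 13.7 CPM in HSC4 (2.65), close to the other lines (2.27 and 2.91). Most of its difference in HSC4 lay in 1 transcript of 2667 bases.

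Other genes carried their ratio over several transcripts. ALPP, placental alkaline phosphatase, was at 110 and 19.6 CPM in HSC4 (−2.46), lower in all 3 transcripts, with −2.50 in HSC3 and −3.85 in SAS, and it has close relatives. LYPD1, a surface protein of the Ly6 family, was at 61.2 and 10.9 CPM in HSC4 (−2.44) and also lower in all 3 transcripts, against −0.47 in HSC3 and −0.51 in SAS. HR, a nuclear corepressor, was at 11.2 and 18.1 CPM in HSC4 (0.67), and it was lower in HPLM in HSC3 (−1.73) and SAS (−1.63).

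Whether HSC4 responded unlike the other lines was tested with the edgeR quasi-likelihood test over 13236 genes. The fit had terms for line, medium and medium within HSC4, and compared the HSC4 ratio with the mean ratio of HSC3 and SAS. Its spread rests on 1 residual degree of freedom, the difference between those 2 lines, pooled over genes. Each SE given with a difference was worked back from its size and the F statistic of the test, not from replicates. At a Benjamini-Hochberg adjusted p under 0.05, edgeR called 0 genes above (0%) and 0 below (0%). At an unadjusted edgeR p under 0.05 it counted 322 above and 347 below. A share of about 0.05 of the 13236 genes would fall there with no difference at all, so these counts are no finding. The smallest edgeR adjusted p was 0.480, for IFITM2 (−3.03 ± 0.23, SE) and SRP9P1. As no gene passed, none of the contrasts above is shown by this test to be particular to HSC4, and a p that misses the threshold does not show that the lines responded alike.

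Without a test, 124 genes of HSC4 lay at least 1 log2 unit above both other lines (0.991%) and 198 at least 1 below both (1.58%). Of those 198 genes 19 were interferon genes and 11 NF-kB genes. The sizes of the differences from the mean of the other lines were as follows in the edgeR fit. IRF9 differed by −1.65 ± 0.25 (SE, edgeR adjusted p = 0.637), DDX58 by −2.26 ± 0.36 (edgeR adjusted p = 0.680) and IFIT1 by −2.19 ± 0.50 (edgeR adjusted p = 0.834). On the inflammatory side, LTB differed by −2.82 ± 0.26 (edgeR adjusted p = 0.582), CXCL1 by −3.11 ± 0.44 (0.608, edgeR adjusted p) and CXCL8 by −3.74 ± 0.73 (edgeR adjusted p = 0.761). KLK10 differed by 2.05 ± 0.27 and NDRG1 by 1.56 ± 0.19 (edgeR adjusted p = 0.608 for each). Of 13236 genes, the DESeq2 Wald test called 12 above and 10 below, while limma-voom, limma-trend and every edgeR setting called 0. As these calls depend on the method, they are not read as a result for any gene.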

How the data were processed

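RNA of 3 oral cancer lines was measured in DMEM and in HPLM, 1 library each. Per the labels' protocols, poly(A) RNA was selected and libraries were strand-specific. Per the submitters' processing notes, FastQC and kallisto were used with hg38. Tool versions, the annotation release and any use of strand in counting were not given in the sources used here, so reads of antisense partners cannot be separated with certainty. The authors deposited expected counts per transcript (estimated counts scaled from TPM, by the table's name), which are abundances corrected for transcript length. DMEM columns carry a line name and an ending the labels do not explain. Of 161149 rows, 1312 repeats were counted once, and 6878 transcripts without a symbol (0.397% and 0.362% of the HSC4 libraries) were left out. The rest were summed by symbol and divided by the library total, and sums were rounded only for the difference test and its alternatives. GENCODE 29 gave positions for 95.3% of transcripts, and RefSeq (GRCh38.p14) gave promoters.

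The difference test used R 4.3.3 and edgeR 4.0.16 (filterByExpr with medium as group, minimum count 10, minimum total 15, TMM), with limma 3.58.1 and DESeq2 1.42.0 as alternatives. It was tested on simulated data. Samples carry no culture or animal identity, so p-values do not measure a spread between cultures. They rest on the difference between the HSC3 and SAS responses, pooled over genes.

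The members and the 48 gene lists were chosen with earlier results of these data known. Of 954 list genes 3 were not analysed here, and a few are not reported here by name. Genes named were the 15 highest and 15 lowest ratios and the 10 per direction farthest from the nearer line, at a mean of 5 CPM or more, the 3 largest per list role at 1 CPM or more, the interferon factors, receptors and sensors, the 5 most abundant and 8 set by name. Other genes in the text were chosen after their values were seen.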

Additional observations from a re-analysis of the deposited data

Results flagged for a closer look

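In 6 named genes HSC4 differed one way between the media and both other lines the opposite way, by at least 0.5 on the log2 scale in each line. With 1 library per medium, the opposite direction itself was not tested. LTB, a membrane-bound cytokine, had −0.79 in HSC4 and 1.75 and 2.03 in HSC3 and SAS (difference −2.82 ± 0.26, SE, edgeR adjusted p = 0.582). PTX3, a soluble pattern receptor that inflammatory signals induce, had −0.87 in HSC4, from 91.5 to 49.9 CPM, and 1.86 and 1.19 in HSC3 and SAS, whose levels lay between 3.96 and 15.6 CPM (edgeR adjusted p = 0.608). RPL10, a ribosomal protein gene with many processed pseudogenes, had −0.58 in HSC4 and 0.59 and 0.65 in the other lines (edgeR adjusted p = 0.680).

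On the higher side, HR had 0.67 in HSC4 and −1.73 and −1.63 in the others (edgeR adjusted p = 0.608). EFNA5, a ligand of Eph receptors, had 1.13 in HSC4, from 3.23 to 7.65 CPM in all 4 of its transcripts above 0, and −0.61 and −0.80 in the others (edgeR adjusted p = 0.761). INO80, a chromatin remodeller, had 1.04 in HSC4 and −0.68 and −0.76 in the others (edgeR adjusted p = 0.834). In INO80 1 transcript of 493 bases went from 0 to 3.80 CPM, while the rest of the gene went from 4.20 to 5.35 CPM.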

How the results depend on the processing

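With no filter on low levels, 378 genes were 2-fold higher and 415 lower in HSC4, with 254 and 344 genes apart from both other lines on the higher and lower side. At a mean of 5 CPM or more these counts were 74, 88, 43 and 73. HSC4 genes apart on the higher side numbered 196 with a pseudocount of 0.1 CPM. Against HSC3 alone 390 and 435 genes were apart, and against SAS alone 346 and 499. DESeq2 called 12 and 10 genes. TMM scaling moved the all-gene median by 0.06 and gave 208 genes 2-fold higher, while HSC4 genes 2-fold lower in HPLM numbered 196, so which direction has more genes depends on the scaling. With protein-coding genes only, chosen after seeing the data, there were 155 higher and 183 lower. Of 2642 values of named genes under alternatives, 0 reversed, 3 fell under 2-fold and 12 passed it, and of 376 list medians 370 stayed within 0.2. The difference test pairs the media by line, and no further paired fit was made, since the labels give no replicate numbers. Leaving out a library would leave its line without a ratio and was not run. Ratios under 5 CPM are limited by depth.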

Other observations

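Genes of invasion and cell adhesion showed no common direction in HSC4 (median −0.05 over 30 measured genes, 1 past 2-fold). MMP13, a collagenase, was that gene, at 4.17 CPM in DMEM and 0.838 CPM in HPLM, with 1.07 in HSC3 and −0.35 in SAS. PLAU, the urokinase that activates plasmin, was at 728 and 525 CPM in HSC4 (−0.47) and higher in HPLM in HSC3 (0.57) and SAS (0.35). FN1, which encodes fibronectin, was at 216 and 353 CPM in HSC4 (0.71). CDH2, an adhesion molecule of mesenchymal cells, had −0.79 and CDH1, its epithelial counterpart, −0.28 in HSC4. MMP1, which had −3.04 in SAS, was at 63.4 and 48.9 CPM in HSC4. MYC, the growth-promoting transcription factor, was at 86.2 and 142 CPM in HSC4 (0.72), against 0.08 in HSC3 and −0.08 in SAS.

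Outside the gene lists, 17 protein-coding genes with a mean of 20 CPM or more were 2-fold different between the HSC4 libraries, and these were chosen after their values were seen. CALB2, the calcium buffer calretinin, was at 45.7 and 14.0 CPM in HSC4 and under 0.3 CPM in all libraries of the other lines. CPA4, a secreted carboxypeptidase, was at 114 and 49.9 CPM in HSC4 (−1.18) and higher in HPLM in HSC3 (0.87) and SAS (0.41). SEMA3A, a guidance molecule, had −1.08 in HSC4 and LPAR1, a receptor of lysophosphatidic acid, −1.06. On the higher side SERPINB2, a protease inhibitor of epithelium, was at 19.7 and 54.6 CPM in HSC4 and between 526 and 822 CPM in the libraries of the other lines, and S100A14 was at 15.5 and 41.1 CPM. COX7A2 (1.05) and NDUFA6 (1.37), subunits of the respiratory chain, and RBIS (1.27), a factor of ribosome assembly, were higher in HSC4. HSC3 and SAS lay between −0.70 and 0.27 for these genes. The list of nuclear respiratory chain genes, which holds none of them, had a median of 0.11 in HSC4 and 0.13 in HSC3. Of its 34 measured genes, 24 were above 0 in HSC4, 10 were below and 1 was past 2-fold.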
